A study of Homo sapiens with 6 samples.

Results

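Genes that regulate or mark blood stem and progenitor cells were followed across the K562 libraries: the transcription factors MYB, GATA2, RUNX1 and MECOM, the chromatin regulator BMI1, the adaptor LMO4, the receptor KIT, the surface proteins CD34 and PROM1, and the enzyme ALDH1A1. They were chosen by name with earlier results of these data known, and all 10 were found among the 35615 gene symbols of the count table. Of these, 8 passed the filter on low counts, which kept 14543 symbols, and CD34 and PROM1 did not.

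Blood stem cells sit at the top of the blood lineages, and a small set of transcription factors, among them RUNX1, GATA2, MYB and MECOM, holds them between self-renewal and commitment. As progenitors commit to the erythroid, megakaryocyte or granulocyte lineages, the receptor KIT and surface markers such as CD34 and PROM1 (CD133) are usually lost. BMI1 belongs to Polycomb repressive complex 1, which silences genes that stop the cell cycle, and high aldehyde dehydrogenase activity, to which ALDH1A1 contributes, is used to sort primitive cells.

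K562 is an established line from a chronic myeloid leukaemia in blast crisis, driven by the BCR-ABL1 kinase. The study delivered a synthetic copy of the microRNA hsa-miR-92a-1-5p, or a negative-control mimic with a scrambled sequence, into 5 M cells by nucleofection, with 500 pmol per transfection. After 4 h all cultures, controls included, received 1 µM imatinib, a drug that blocks BCR-ABL1 and also KIT, and RNA was taken 24 h later. Each group had 3 libraries labelled as biological replicates 1 to 3. By the labels the groups differ only in the mimic, there is no culture without imatinib, and the results come from a single line. The labels do not say what a shared replicate number marks, so p-values measure the spread between these libraries.

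Library totals were 24.8 to 26 M estimated counts in 5 libraries and 0.704 M in mimic replicate 1, which was 36-fold shallower. In that library 3 counts corresponded to 4.08 CPM (estimated counts per M of the library's TMM-scaled total), against 0.115 to 0.125 CPM elsewhere. The labels call the cells myeloblasts. The 7 erythroid markers summed to between 8880 and 19000 CPM, whereas MPO, the peroxidase typical of myeloblasts, was at 0 in all 6 libraries and the 6 granulocyte and monocyte markers summed to 24.7 to 78.1 CPM.

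MicroRNAs pair with target RNAs mainly through the seed, bases 2 to 8, and the arm that the protocol names differs from the better-known hsa-miR-92a-3p of the same hairpin. Both mature sequences are shown, 5′ to 3′, with the seed in capitals, from RefSeq on GRCh38.p14. They lie on chromosome 13, plus strand, at chr13:91351324-91351346 and chr13:91351361-91351382.
hsa-miR-92a-1-5p: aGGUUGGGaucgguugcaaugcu
hsa-miR-92a-3p: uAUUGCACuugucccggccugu

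Seed matches of the mimic were sought in the longest annotated 3′ UTR of each member (GENCODE release 29, GRCh38). A match of 7 or 8 bases was found in 3 of the 10 members, MECOM, RUNX1 and CD34. Of the 18434 symbols with an annotated 3′ UTR 16% held one. That share covers 3′ UTRs of any length and was not adjusted for length. The 3′ UTRs of CD34 (6766 bases) and RUNX1 (4334 bases) were the longest among the members. The 3 member sites are shown because they are the matches of this length in the 3′ UTRs searched. Coding sequence, 5′ UTRs and other 3′ UTR forms were not searched. The matching letters, with the adenine that ends the RUNX1 site, are in capitals on the transcript strand, and all 3 genes lie on the minus strand.
MECOM: aatgaagtgttCCCAACCttatgttaaaa
RUNX1: cagagacattgCCAACCAtattggatctg
CD34: catctcttacgCCCAACCcttccccactg
The MECOM match, at chr3:169083723-169083729, pairs with all 7 seed bases, as does the CD34 match at chr1:207887633-207887639. The RUNX1 match, at chr21:34789111-34789117, pairs with bases 2 to 7 and is followed by an adenine. MYB, GATA2, BMI1, LMO4, KIT, ALDH1A1 and PROM1 held no match of this length for the mimic in the 3′ UTR searched. For the 3p arm, which was not delivered, matches of 7 or 8 bases lay in the 3′ UTRs of GATA2, LMO4 and MYB. Of all symbols with an annotated 3′ UTR 18.4% held one, again with no adjustment for length. The member sites of the 3p arm are shown for contrast and carry different letters from the sites of the mimic.
GATA2: gtagtgaccaaGTGCAATAtgggcgggcag
LMO4: cctacaagcaaGTGCAATtaaaaataaaa
MYB: ttttttccttcTGCAATAcatttgaaaac
A match is a string of letters, and whether the site is used in K562 cells was not measured.

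**Figure D1:**
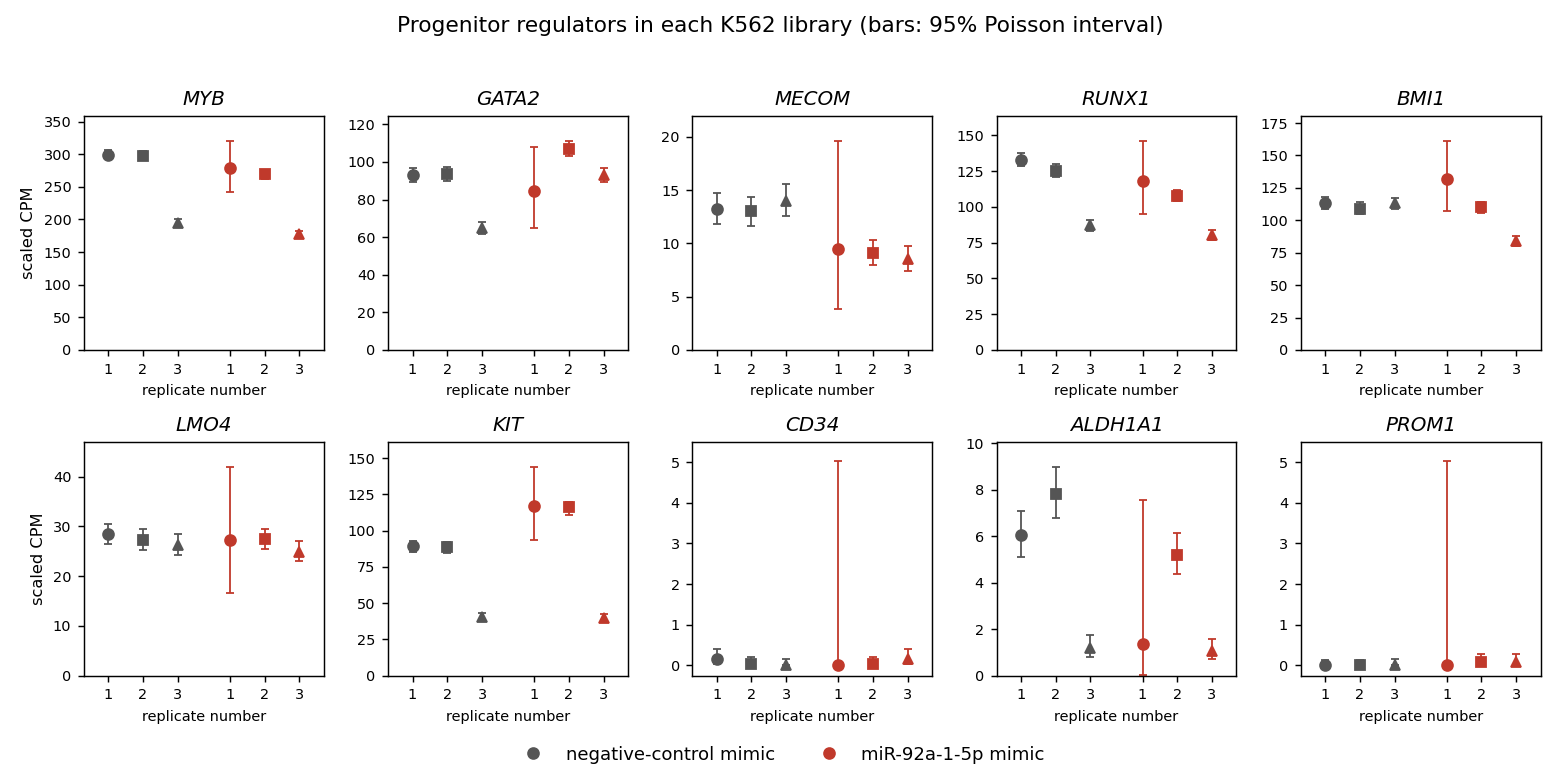
Scaled CPM (vertical axis, from 0, 1 panel per gene) of the 10 genes in each library, with control libraries in grey, mimic libraries in red and the replicate number on the horizontal axis. Bars are 95% Poisson intervals, which cover counting error only and are wide in the shallow mimic replicate 1. KIT sits at 40.7 and 40.0 CPM in the replicate 3 libraries and between 88.6 and 117 CPM in the others, while MECOM lies at 13.0 to 14.0 CPM in the controls and 8.50 to 9.52 CPM with the mimic.

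Expression per length, as CPM per kilobase of the GENCODE transcript with the longest coding sequence, set the genes in order. MYB stood highest, with a median of 74.6 and a range over libraries of 48.1 to 81.5 CPM per kb, above every library of the other genes. BMI1 (median 32.5), GATA2 (27.6), RUNX1 (18.2) and KIT (17.1 CPM per kb) followed, and the ranges of neighbours in this order overlapped. LMO4 came next at 5.04 CPM per kb, with a range of 4.61 to 5.27, separate from KIT above it, whose range was 7.72 to 22.6, and from MECOM below it. MECOM had a median of 2.85 (2.16 to 3.56) and ALDH1A1 of 1.55 (0.514 to 3.71) CPM per kb, and these overlapped. The order depends on the transcript assumed. With the shortest annotated transcript of each gene, RUNX1 (71.1 CPM per kb) came before GATA2 (49.5) and BMI1 (32.5). LMO4 (21.6) then came before KIT (17.1), and ALDH1A1 (3.99) before MECOM (3.33). The isoforms in these cells were not measured.

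Both surface markers that define primitive blood cells were near the limit of counting. CD34 had 4, 1 and 0 counts in control replicates 1, 2 and 3 and 0, 1 and 4 counts in mimic replicates 1, 2 and 3. PROM1 had 0 counts in the 3 control libraries and 0, 2 and 2 counts in mimic replicates 1, 2 and 3. In the 5 deep libraries this was at most 0.160 CPM for CD34 and 0.0802 CPM for PROM1, and no difference was detectable at this depth. In the shallow library 3 counts, the limit set here for a count of 0, are 4.08 CPM, and the two-sided 95% Poisson interval of a count of 0 reaches 5.02 CPM.

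The first comparison asked whether the mimic moved these genes in imatinib-treated cells. None of the 8 tested genes passed an adjusted p of 0.05 in edgeR's quasi-likelihood test on group alone, against 1.41% of all tested symbols in either direction. One gene, MECOM, had an unadjusted p under 0.05, as did 1964 of the 14543 tested symbols. DESeq2 and limma-voom also called 0 of the 8 genes at the adjusted threshold. The median log2 difference of the 8 genes was -0.13, and that of all tested symbols was -0.01.

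MECOM encodes the zinc finger factor that includes EVI1, needed for stem cell self-renewal and activated in some leukaemias (chr3:169083499-169663618, minus strand). Its level was 13.2, 13.0 and 14.0 CPM in control replicates 1 to 3 and 9.52, 9.09 and 8.50 CPM in mimic replicates 1 to 3. All 3 mimic libraries lay below all 3 control libraries, a separation in this direction that 11.5% of tested symbols showed, and MECOM was the only one of the 8 genes with it. The value in mimic replicate 1 rested on 7 counts, with a 95% Poisson interval of 3.83 to 19.6 CPM that spans the control levels. The group means were 13.4 ± 0.55 and 9.04 ± 0.52 CPM (SD, n = 3 each), a ratio of 0.674.

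On group alone the MECOM log2 difference was -0.59 ± 0.16 (SE), with an edgeR adjusted p of 0.137. With the replicate number as a block it was -0.60 ± 0.17 with an adjusted p of 0.0207, and MECOM was then the only one of the 8 genes called. In that fit 6.7% of tested symbols were called lower and 4.57% higher. With a term for replicate 3 alone, the difference was -0.60 ± 0.13 with an adjusted p of 0.00732, where 8.68% of symbols were called lower. The blocked call was lost without pair 2 (-0.68 ± 0.28, adjusted p = 0.158) and without pair 3 (-0.51 ± 0.25, adjusted p = 0.235). It held without pair 1, the one with the shallow library (-0.61 ± 0.16, adjusted p = 0.027). Without the block, leaving out each library in turn gave log2 differences from -0.55 to -0.63 and adjusted p from 0.163 to 0.471. The direction was the same under each of these settings, and MECOM passed the threshold only with the block (all pairs, or without pair 1), with the replicate 3 term, or in replicates 1 and 2 alone. In bulk RNA, fewer cells that express a gene and less RNA per cell cannot be told apart.

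MYB, required for the expansion of definitive blood progenitors (chr6:135181315-135219173, plus strand), was the most abundant of the genes. Its level was 299, 298 and 195 CPM in control replicates 1 to 3 and 279, 269 and 177 CPM in mimic replicates 1 to 3. The groups overlapped, and the high and low values followed the replicate number. The log2 difference between mimic and control was -0.15 ± 0.21, with an adjusted p of 0.833. Within each replicate number the mimic library was lower by a similar amount, with log2 ratios of -0.10, -0.15 and -0.14 for numbers 1, 2 and 3, and with the block the adjusted p was 0.309.

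RUNX1, the core-binding factor that establishes definitive blood stem cells (chr21:34787801-36004667, minus strand), had the same layout. It measured 133, 125 and 87.2 CPM in control replicates 1 to 3 and 118, 108 and 80.1 CPM in mimic replicates 1 to 3. The groups overlapped, and the mimic library was lower within each replicate number. The log2 difference was -0.22 ± 0.19, with an adjusted p of 0.71 on group alone and of 0.231 with the block. It was -0.05 without mimic replicate 3 and -0.39 without control replicate 3. When replicates 1 and 2 were fitted alone, RUNX1 was called lower (-0.25 ± 0.07, adjusted p = 0.0102), MECOM was called lower (-0.52 ± 0.17, adjusted p = 0.0305) and KIT was called higher (0.38 ± 0.07, adjusted p = 5.01e-05). These were 3 of 8 genes, against 15.4% of all symbols called in either direction in that fit of 2 libraries per group.

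GATA2, a zinc finger factor that maintains stem cells and early progenitors (chr3:128479427-128493185, minus strand), measured 92.8, 93.6 and 64.8 CPM in control replicates 1 to 3 and 84.4, 107 and 93.1 CPM in mimic replicates 1 to 3. The groups overlapped, and control replicate 3 stood below the other 5 libraries. The log2 difference between mimic and control was 0.21 ± 0.16 with an adjusted p of 0.651, and 0.26 ± 0.10 with an adjusted p of 0.116 with the block. On group alone it was 0.06 without control replicate 3. The antisense gene GATA2-AS1 overlaps GATA2, as MYB-AS1 overlaps MYB, and whether the counting used strand is not given in the sources used here.

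KIT, the receptor for stem cell factor and itself a target of imatinib (chr4:54657918-54740715, plus strand), measured 89.2, 88.6 and 40.7 CPM in control replicates 1 to 3 and 117, 116 and 40.0 CPM in mimic replicates 1 to 3. The mimic libraries of replicates 1 and 2 were the highest, and the replicate 3 libraries of both groups were the lowest and nearly equal. The log2 difference between mimic and control was 0.24 ± 0.43, with an adjusted p of 0.881 on group alone and 0.156 with the block. It was -0.17 without mimic replicate 2 and 0.67 without mimic replicate 3.

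BMI1, LMO4 and ALDH1A1 completed the tested set. BMI1 (chr10:22321211-22331484, plus strand) measured 113, 109 and 113 CPM in control replicates 1 to 3 and 132, 110 and 84.0 CPM in mimic replicates 1 to 3, with a log2 difference of -0.10 ± 0.15 and an adjusted p of 0.844. Its groups overlapped, with mimic replicate 3 the lowest library and the shallow mimic replicate 1 the highest. LMO4, a LIM-only adaptor that bridges transcription factors (chr1:87328468-87348923, plus strand), measured 28.5, 27.3 and 26.3 CPM in the controls and 27.2, 27.4 and 24.9 CPM with the mimic. The groups overlapped, the ratio of its highest to its lowest library was the smallest among the 8 tested genes, and its log2 difference was -0.06 ± 0.12, with an adjusted p of 0.902.

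ALDH1A1, which oxidises retinaldehyde to retinoic acid (chr9:72900662-73080442, minus strand), measured 6.04, 7.82 and 1.21 CPM in control replicates 1 to 3 and 1.36, 5.19 and 1.08 CPM in mimic replicates 1 to 3. The value in mimic replicate 1 was a single count, with a 95% Poisson interval of 0.0344 to 7.58 CPM. Among the deep libraries the replicate 3 pair was low and the others were high. The log2 difference between mimic and control was -0.75 ± 0.76, with an adjusted p of 0.756, and it was -0.15 without mimic replicate 3 and -2.18 without mimic replicate 2. The pseudogene CYP1D1P, on the opposite strand, overlaps ALDH1A1 and had 18 to 59 counts in the deep libraries.

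**Figure D2:**
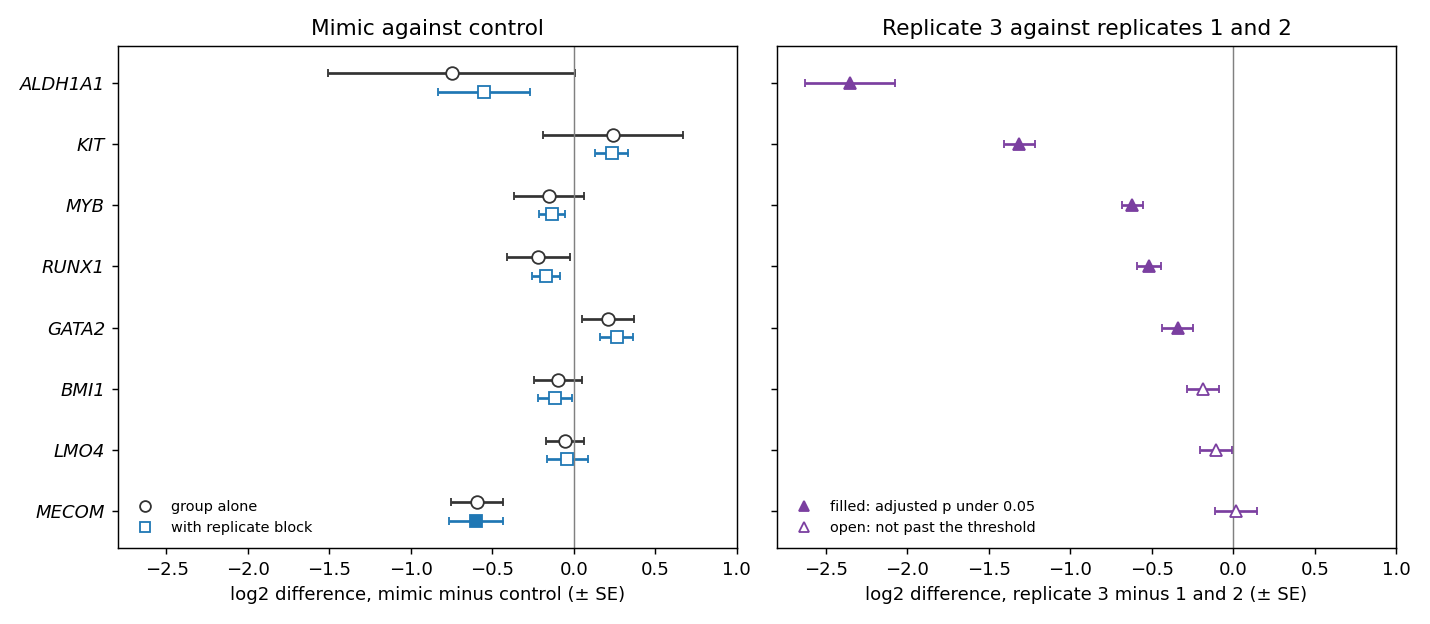
Log2 differences (horizontal axes, ± SE) of the 8 tested genes, on the left for mimic minus control on group alone (circles) and with the replicate block (squares), and on the right for replicate 3 minus replicates 1 and 2 (triangles). Filled symbols have an adjusted p under 0.05. With the block MECOM alone is filled on the left at -0.60, while ALDH1A1, KIT, MYB, RUNX1 and GATA2 are filled on the right, from -2.35 to -0.34.

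The second comparison set the 2 libraries of replicate 3, 1 per group, against the 4 of replicates 1 and 2, with the group as a term in the fit. It was chosen because earlier results of these data showed replicate 3 apart from the others, so its p-values describe these libraries and the labels give the numbers no other meaning. Of the 8 tested genes, 5 were called lower in replicate 3 and 0 higher, against 12.8% of all tested symbols called lower and 11.8% called higher. The genes were also chosen with earlier results known, so these shares do not test them as a set. The median log2 difference of the 8 genes was -0.43, and that of all tested symbols was 0.00. Both replicate 3 libraries lay below the other 4 for MYB, RUNX1, LMO4, KIT and ALDH1A1, a pattern of 14.2% of tested symbols.

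ALDH1A1 fell the most among them, by 2.35 on the log2 scale (SE 0.28, edgeR adjusted p = 7.04e-05). Its level was 1.08 to 1.21 CPM in replicate 3 and 1.36 to 7.82 CPM in the other libraries, of which the lowest was the single count in the shallow one. KIT fell by 1.31 on the log2 scale (SE 0.09, adjusted p = 1.29e-06), from a mean of 103 ± 15.8 CPM (SD, n = 4) to 40.7 and 40.0 CPM, so that it was 2.54-fold higher in replicates 1 and 2. The fall of KIT was seen in each group, with log2 ratios of -1.13 among the controls and -1.54 with the mimic.

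MYB and RUNX1 fell by smaller and similar amounts. MYB fell by 0.62 on the log2 scale (SE 0.07, adjusted p = 2.95e-05), from a mean of 286 ± 14.9 CPM (SD, n = 4) to 195 and 177 CPM. RUNX1 fell by 0.52 (SE 0.07, adjusted p = 0.000305), from 121 ± 10.8 CPM (SD, n = 4) to 87.2 and 80.1 CPM. For both genes the control and mimic libraries gave close log2 ratios of replicate 3 to the others, -0.62 and -0.63 for MYB and -0.57 and -0.50 for RUNX1.

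GATA2 fell by 0.34 on the log2 scale (SE 0.10, adjusted p = 0.0206), and its libraries overlapped. The log2 ratio of replicate 3 to the others was -0.52 among the controls and -0.04 with the mimic. Its call was lost without control replicate 1 (adjusted p = 0.0603), 2 (0.0521) or 3 (0.166), without the filter on low counts (0.0523) and with all libraries thinned to the shallowest (0.0506).

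MECOM, BMI1 and LMO4 did not pass the threshold between the replicate numbers. MECOM had a log2 difference of 0.01 ± 0.13 with an adjusted p of 0.954, and its replicate 3 libraries were the highest control and the lowest mimic library. LMO4 had a log2 difference of -0.11 ± 0.10 with an adjusted p of 0.467. BMI1 had -0.19 ± 0.10 with an adjusted p of 0.193, and without control replicate 3 it was called lower (-0.42 ± 0.09, adjusted p = 0.000169), since the term then rested on mimic replicate 3 alone.

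Markers of blood lineages moved with the same split. The erythroid sum was 8880 to 11500 CPM in replicates 1 and 2 and 17900 to 19000 CPM in replicate 3, and 5 of 7 markers were called higher, among them the embryonic globins HBZ (1.24 ± 0.09) and HBE1 (1.14 ± 0.08 on the log2 scale). The megakaryocyte sum was 61.7 to 65.9 CPM and 17.4 to 19.7 CPM in turn, and only 2 of its 5 markers were tested. The integrin ITGA2B was called lower (-2.14 ± 0.10, adjusted p = 2.15e-08, from a mean of 59.3 to 13.7 CPM) and makes up nearly all of the sum, GP1BA was not called (0.43 ± 0.20), and the platelet chemokine PF4 was at 0 in all libraries. The granulocyte and monocyte sum was 47.6 to 78.1 CPM against 24.7 to 37 CPM, with MPO at 0. Of its 6 markers 2 were tested, LYZ and CD33, and each was called lower. The 6 endothelial and stromal markers summed to 18.6 to 28.6 against 11.3 to 16.3 CPM. Of these 3 were tested, and PECAM1 and COL3A1 were called lower, COL3A1 at 0.249 to 1.36 CPM. Over all tested symbols 12.8% were called lower and 11.8% higher. The part of these markers in the fall of KIT, ALDH1A1, MYB, RUNX1 and GATA2 was not tested. Between mimic and control no marker of these 4 lists was called, and the erythroid sums overlapped (11400 to 19000 CPM in controls, 8880 to 17900 CPM with the mimic).

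**Figure D3:**
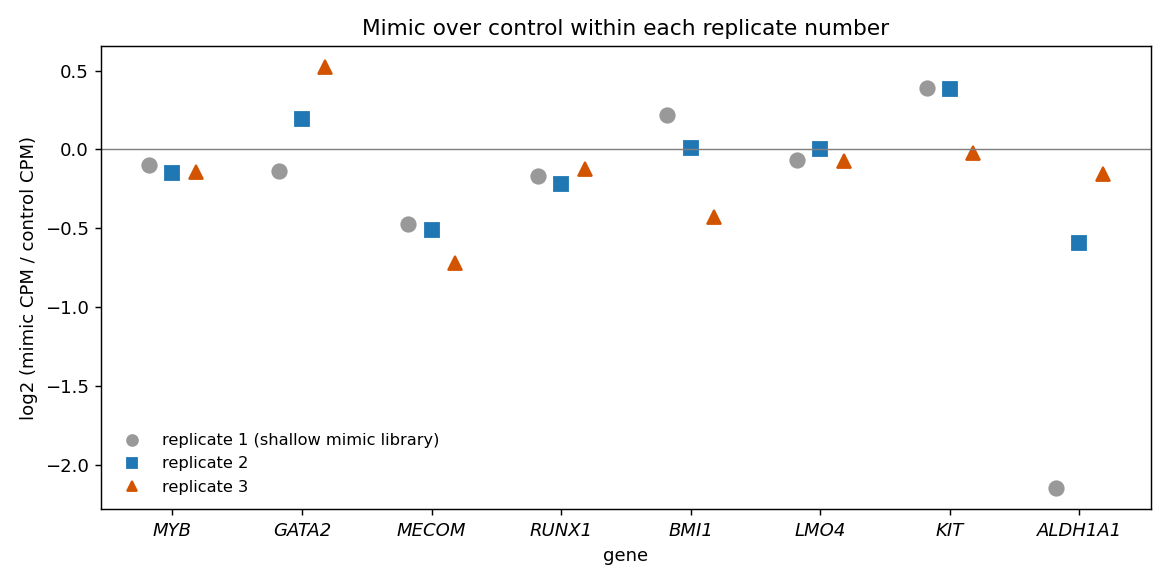
Log2 ratio of mimic to control CPM (vertical axis) within replicate numbers 1 (grey circles), 2 (blue squares) and 3 (orange triangles) for the 8 tested genes. MECOM is below 0 in all 3 numbers (-0.47, -0.51 and -0.72), whereas BMI1 runs from 0.22 in number 1 to -0.43 in number 3 and GATA2 from -0.14 to 0.52.

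The third comparison asked whether the mimic difference itself differed between replicate 3 and the others, by an interaction term with 2 residual degrees of freedom. Of the 8 genes 1, BMI1, was called, against 3.92% of all tested symbols in either direction. The BMI1 log2 ratio of mimic to control was 0.22 in number 1, 0.01 in number 2 and -0.43 in number 3, and the interaction was -0.44 ± 0.11 with an edgeR adjusted p of 0.0172. DESeq2 and limma-voom did not call it, nor did any fit without 1 of the 4 libraries of replicates 1 and 2.

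The neighbouring gene model bears on BMI1. COMMD3-BMI1, a readthrough gene on the same strand that shares exons with BMI1, had 118, 148 and 113 counts in control replicates 1 to 3 and 4, 140 and 334 counts in mimic replicates 1 to 3. Its share of the summed CPM of the pair was 3.92% to 5.08% in 5 libraries and 13.7% in mimic replicate 3, the library in which BMI1 was lowest. The interaction for COMMD3-BMI1 was 1.48 ± 0.35 with an adjusted p of 0.00833, opposite to that of BMI1. With both summed, the interaction was -0.29 ± 0.11 with an adjusted p of 0.151. How reads shared by these 2 models were divided cannot be read from the table, and the BMI1 value is uncertain for that reason.

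For KIT the interaction was -0.40 ± 0.12 with an adjusted p of 0.0515, and for GATA2 it was 0.36 ± 0.12 with an adjusted p of 0.08. KIT was higher with the mimic in numbers 1 and 2 (log2 ratios 0.39 and 0.38) and near 0 in number 3 (-0.02). GATA2 had ratios of -0.14, 0.20 and 0.52. MYB, RUNX1, MECOM, LMO4 and ALDH1A1 had adjusted p-values from 0.686 to 1.

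Genes that work with the members were read from 10 lists that hold 109 measured symbols, of which 92 were tested. Between mimic and control 0 of 92 were called on group alone, with 14 at an unadjusted p under 0.05, as were 1964 of the 14543 symbols. Other tests called few of them, 2 by DESeq2 and 3 by voom. Blocking on the replicate number gave 11 lower and 4 higher, where 6.7% of all symbols were lower and 4.57% higher, and 7, 5 and 10 called in all without pairs 1, 2 and 3. Between replicate 3 and the others 14 were lower and 8 higher, near the shares of all symbols (12.8% and 11.8%), so the calls below describe single genes and nothing particular to the lists. Their median log2 difference was 0.00, as was that of all symbols. With all libraries thinned to the shallowest, 4 of the listed genes were called there.

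Partners of the transcription factors split in direction in replicate 3. In the stem cell transcription factor complex 1 of 7 tested genes was called, TAL1, a partner of GATA2 and RUNX1, which rose by 0.39 ± 0.08. Of 10 other progenitor regulators 3 were called lower and 0 higher: MEF2C, a myeloid and lymphoid factor (-1.36 ± 0.11, from a mean of 60.3 to 22.3 CPM), the erythroid factor GATA1 (-0.33 ± 0.07) and the myeloid factor SPI1 (-0.34 ± 0.12). The SPI1 call was lost with the replicate block (adjusted p = 0.122) and without control replicate 1 or 2 or mimic replicate 2 or 3. Among 6 relatives and coactivators of MYB 1 was called, the methyltransferase KMT2A, which rose by 0.33 ± 0.07. Of 2 tested corepressors of MECOM neither was called in either comparison, and CTBP1 measured 121 ± 1.21 CPM in controls and 128 ± 25.9 CPM with the mimic (SD, n = 3 each).

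The HOX programme list (HOX genes, which act downstream of KMT2A in progenitors, their MEIS and PBX cofactors, HLF and HMGA2) had 4 of 11 tested genes called lower in replicate 3 and 0 higher, with a median log2 difference of -0.39. MEIS1 fell by 0.64 (SE 0.15), from a mean of 13.4 to 8.07 CPM, and MEIS2 fell by 0.49 (SE 0.11). HOXA5 fell by 1.31 (SE 0.44) at a level of 0.333 to 1.36 CPM, and its call was lost with the block (adjusted p = 0.0648) and without any one of the 6 libraries. Between mimic and control 0 of the 11 were called.

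Of 18 subunits and partners of Polycomb repressive complex 1, where BMI1 acts, 2 were called lower and 1 higher in replicate 3. PHC2 (-0.38 ± 0.09) and PCGF2, the closest relative of BMI1 (-0.55 ± 0.13), fell, and CBX8 rose (0.34 ± 0.11). The PHC2 call was lost without control replicate 3, and that of CBX8 with the block (adjusted p = 0.118) and without control replicate 1 or 2 or mimic replicate 2 or 3. With the replicate block, 1 of the 18 was called lower and 2 higher between mimic and control, PHC2 among the latter (0.35 ± 0.10, adjusted p = 0.0298).

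Among 7 tested LIM-only proteins and their LDB1 cofactors, the family of LMO4, 1 was called in replicate 3, LMO3, higher by 1.89 ± 0.52 at 0 to 0.42 CPM in replicates 1 and 2 and a mean of 1.11 CPM in replicate 3, and the call was lost without any one of the 3 controls. Of 10 tested signalling partners of KIT 1 was lower and 2 were higher. The adaptor GAB2 fell by 0.37 (SE 0.11), the phosphatidylinositol 3-kinase subunit PIK3R1 rose by 0.54 ± 0.11 and the adaptor SHC1 rose by 0.29 ± 0.07. The GAB2 call was lost with the block (adjusted p = 0.0597) and without control replicate 1 or 2 or mimic replicate 2 or 3, and that of SHC1 without control replicate 1.

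Of 8 other stem and progenitor surface proteins tested, 1 was lower and 1 higher in replicate 3. PODXL, a sialomucin of the CD34 family, rose by 1.44 ± 0.08 (adjusted p = 3.12e-07), from 31.6 ± 5.34 CPM (SD, n = 4) to a mean of 87.2 CPM, while CD34 itself had 4 counts at most in any library. The sialomucin CD164 fell by 0.43 (SE 0.11), a call lost without mimic replicate 3. With the replicate block PODXL (-0.49 ± 0.11, adjusted p = 0.00473) and CD164 (-0.40 ± 0.10, adjusted p = 0.0117) were lower with the mimic, as was PROCR, the protein C receptor, named after its values were seen (-0.97 ± 0.28, adjusted p = 0.0272). CD164 measured 364 CPM in mimic replicate 3 and 596 to 716 CPM in replicates 1 and 2, and its interaction was called (-0.59, adjusted p = 0.000338).

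Of 15 tested aldehyde dehydrogenases other than ALDH1A1, 3 were lower and 1 higher in replicate 3. The cytosolic retinaldehyde enzyme ALDH1A2 fell by 0.35 (SE 0.09), from a mean of 62.1 to 47 CPM, and the mitochondrial ALDH1B1 fell by 0.36 (SE 0.09), from 50.7 to 38.8 CPM. ALDH3B1 rose by 1.61 ± 0.20 (adjusted p = 9.98e-05), from a mean of 2.78 to 9.62 CPM. The fall of ALDH1A1, by 2.35 on the same scale, was thus greater than that of any of the 3 relatives called lower.

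**Figure D4:**
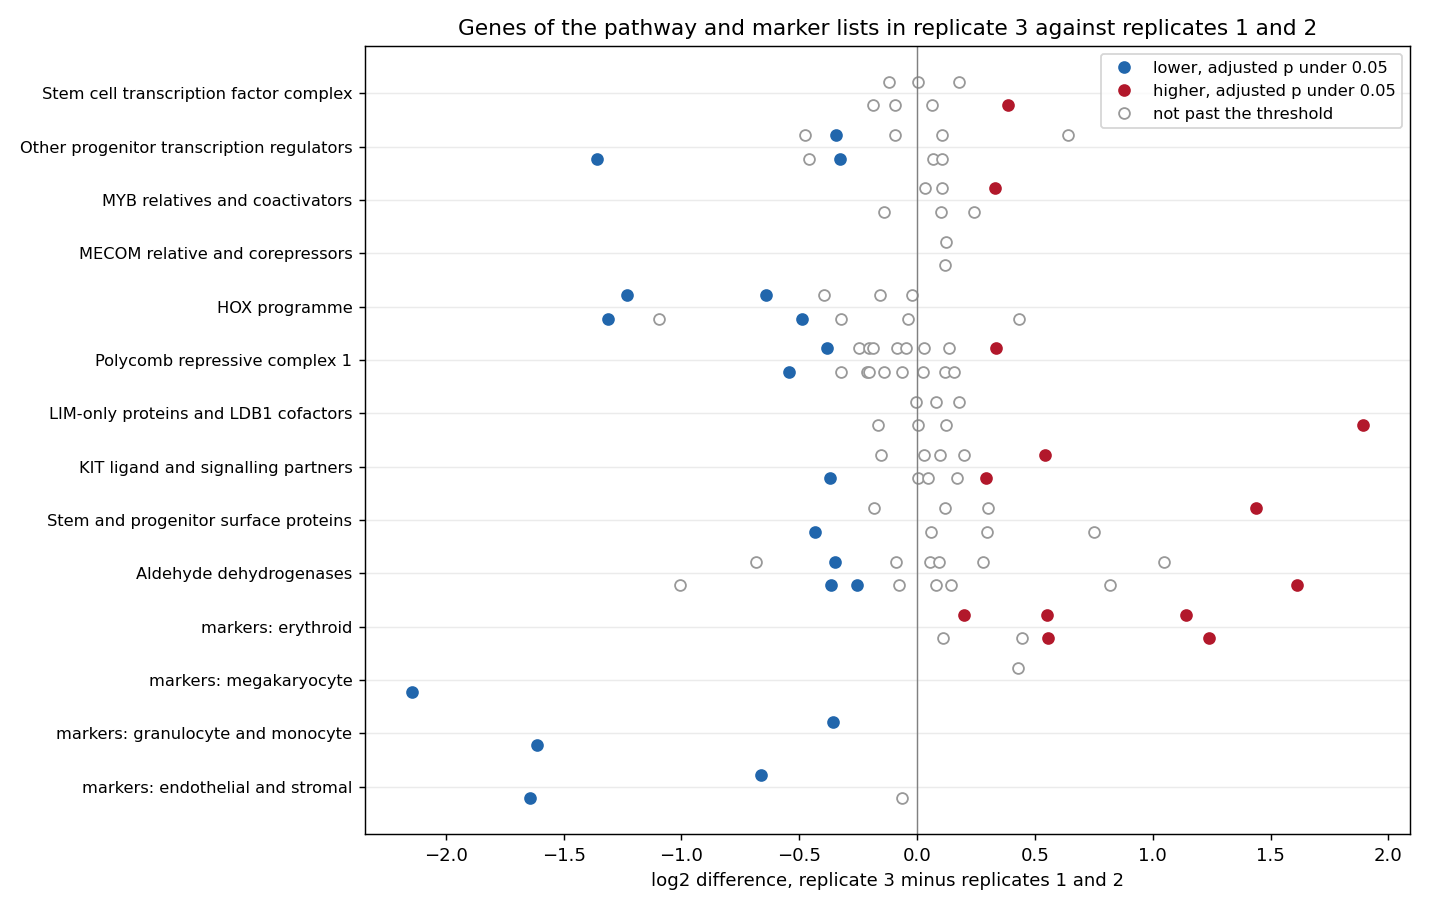
Log2 difference of replicate 3 minus replicates 1 and 2 (horizontal axis) for each tested gene of the 10 pathway lists and 4 marker lists (rows; 2 genes stand in more than 1 list). Filled blue and red points were called lower and higher, open points were not past the threshold. The erythroid markers hold 5 red points, the HOX programme 4 blue ones, and the other pathway lists at most 3 in either colour.

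Promoters, from 250 bases before to 50 after each annotated start (RefSeq, GRCh38.p14), were searched for the letters AGATAA, which GATA factors bind, and TGTGGT, which RUNX factors bind, on both strands within the 250 bases upstream. All 10 members were in the table. AGATAA stood in 9.17% and TGTGGT in 11% of 35116 promoters. Among the members ALDH1A1 held AGATAA at its 1 start, and MECOM held AGATAA at 1 and TGTGGT at 1 of its 3 starts. The shares above count starts, and the members have 1 to 4 starts each, so a count of genes cannot be set beside them. All matches found in the members are shown, with the motif in capitals. KIT, MYB, RUNX1 and GATA2, also called lower in replicate 3, held neither motif.
ALDH1A1: tttagcccgtgcAGATAAaaaaggaacaaa
MECOM: gagccctgctgcTTATCTacgttgctaagc
MECOM: acacACCACActtgtgctttca
In ALDH1A1 the motif lies at chr9:72953082-72953087, 34 bases before the start, on the gene's strand. In MECOM both matches are on the opposite strand, at chr3:169146563-169146568, 29 bases before 1 start, and at chr3:169147712-169147717, 246 bases before another. The matches are letters in a window and do not show that a factor binds there.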

How the data were processed

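The authors deposited estimated counts for each gene symbol as whole numbers, quantified with kallisto, and GRCh38 is the build named, per the submitters' processing notes. Total RNA was sequenced as read pairs, per the labels' protocols. The version, annotation, strand and step from transcripts to genes are not given in the sources used here. Groups, replicate numbers and doses came from the labels, and 0 columns were left unused. No 2 libraries were identical.

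Counts were fitted in R 4.3.3 with edgeR 4.0.16 (filterByExpr by group, TMM, quasi-likelihood F-test, Benjamini-Hochberg over 14543 symbols, threshold 0.05). An SE was obtained as the absolute log2 difference over the root of F. CPM are per M of the TMM-scaled total. The designs were group, group with a replicate 3 term, and their interaction. Alternatives were DESeq2 1.42.0, limma-voom 3.58.1, other scalings and filters, thinning, leaving out libraries, and the replicate block. Deviations of same-numbered libraries over 14543 symbols had r of 0.15, 0.16 and 0.42 for numbers 1, 2 and 3. Control 1 with mimic 2 had 0.099 and control 2 with mimic 1 had 0.09. Over 4829 abundant symbols mimic 2 went closer than mimic 1 with control 1 (0.52 against 0.37) and with control 2 (0.48 against 0.25). Pairs of number 3 with another number were negative, which follows in part from taking deviations from each group's mean of 3 libraries. The r of same-numbered libraries was highest for number 3, and the pairing within numbers 1 and 2 is not settled. Blocked values are given for some members and listed genes, and not for each gene whose call the block changed. The fits were tested on simulated counts. The members, lists and replicate 3 comparison were chosen with earlier results of these data known. Named genes were all members and, per list, up to 3 genes past the threshold in either of the first 2 comparisons by smallest p, or the most abundant where none passed; markers named, and COMMD3-BMI1, were chosen after their values were seen. The lymphoid marker list is not reported here. Intervals are exact 95% Poisson. Seed and motif searches used Python 3.11.15, and figures matplotlib 3.10.9.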

Additional observations from a re-analysis of the deposited data

Results flagged for a closer look

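The difference between mimic and control for BMI1 was not the same in replicate 3 as in replicates 1 and 2, by the interaction term (-0.444 ± 0.113 on the log2 scale, edgeR adjusted p = 0.0172). It rests on 1 library per group in replicate 3, and mimic replicate 3 was also the library with the highest share of the readthrough gene COMMD3-BMI1, at 13.7%. The part of the readthrough gene in the difference was not tested beyond the summed fit, in which the adjusted p was 0.151.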

How the results depend on the processing

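Between mimic and control the count of members called was 0 on group alone and under the other tests, scalings, filters and left-out libraries. With the replicate block it was 1, with a replicate 3 term 1, and in replicates 1 and 2 alone 3. With the block it was 1 without pair 1 (MECOM, adjusted p = 0.027) and 1 without pair 3 (KIT, higher by 0.386, adjusted p = 0.00014), a different gene. The block changed no call of a member between replicate 3 and the others. There the count was 5, 4 with no filter on low counts or without control replicate 1 or 2, and 3 with all libraries thinned to the shallowest, where ALDH1A1 failed the filter. For the interaction the count of 1 became 0 with DESeq2, limma-voom, no filter on low counts, a mean of at least 1 CPM and thinning, 2 with total counts alone (KIT as well, adjusted p = 0.0408), and 0 in each of the 4 fits without 1 library.

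Several differences that were not called on the full set turned direction. Leaving out 1 library gave -0.337 to 0.0472 for MYB, -0.207 to 0.0692 for BMI1 and -0.174 to 0.672 for KIT between mimic and control. BMI1 was also 0.0137 in replicates 1 and 2 alone and 0.0574 with the block without pair 3, and LMO4 was 0.275 when thinned. Between replicate 3 and the others MECOM was -0.0325 with total counts alone and -0.101 to 0.0977 over left-out libraries, and BMI1 -0.421 to 0.022. The MYB interaction was 0.00483 with limma-voom, 0.000689 with median-of-ratios scaling, 0.00354 without the filter and -0.0417 to 0.0091 over left-out libraries. The cause was not tested. The thinned table gave no MECOM or ALDH1A1 value, since they failed the filter there, and the shallow mimic replicate 1 limits each gene under 4.08 CPM.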
